A study of Mus musculus with 6 samples.

Results

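The genes of glutamate receptors and of the auxiliary subunits that travel with them were examined in mouse frontal cortex. They were chosen by name as 30 genes out of 33000 in the deposited count table, and all 30 were found and passed the filter on low counts. They comprised 4 AMPA, 5 kainate and 7 NMDA receptor subunits, 1 delta receptor subunit, 6 metabotropic receptors, 5 auxiliary subunits of AMPA receptors and 2 of kainate receptors. Frontal cortex came from 3 mice homozygous for GFAP-IL6 and from 3 wild-type (WT) mice, all aged 3 months and of the strain given as C57BL/6, with 1 TruSeq mRNA library per mouse. In GFAP-IL6 mice the promoter of Gfap drives the inflammatory cytokine IL6 in astrocytes, so the groups differ in a transgene that is present throughout life and not in a timed treatment. In the study these libraries served to benchmark another library protocol, and the comparison between the genotypes asks which transcripts differ in a brain with chronic exposure to IL6.

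Glutamate is the main excitatory transmitter of the cortex. AMPA, kainate and NMDA receptors are ion channels built of subunits, and NMDA receptors pair the obligatory subunit GluN1 with GluN2 or GluN3 subunits that set channel kinetics and magnesium block. Metabotropic receptors signal through G proteins, and auxiliary subunits such as TARPs, cornichons and Neto proteins control the trafficking and gating of AMPA and kainate receptors.

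The libraries held 7559524 to 16877001 counts, and the 30 genes together took 0.407% to 0.470% of the counts of a library. As a check of the labels, Gfap was at 76.5, 123 and 84.2 CPM (counts scaled to a common library total) in WT and at 517, 646 and 870.2 CPM in GFAP-IL6. Il6 was at 0, 0.119 and 0 CPM in WT and at 1.08, 1.32 and 2.68 CPM in GFAP-IL6. Both were called higher in GFAP-IL6 by edgeR, with adjusted p of 5.5e-06 for Gfap and 0.0021 for Il6. Strand use in counting was not stated. With GENCODE M21 exons, 32.1% of the exon bases of Grin3b were shared with Tmem259 and 13.5% of those of Grin1 with the antisense gene Grin1os. For Grin2d and Grm2 the shared part was 9.66% and 9.60%. The study counted reads over an earlier GENCODE release, in which the shared parts can differ. Grin1, for example, has a deposited length of 4368 bases, against 9700 exon bases in M21. The overlapping genes lie on the opposite strand, so reads there can be assigned to 1 gene only if counting used the strand.

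WT replicate 2 stood apart. Its markers of the striatum, the nucleus beneath the frontal cortex, summed to 514 CPM, against 261.7 to 336 CPM in the other libraries. Adora2a, which marks striatal projection neurons, was at 14.1 CPM there and at 1.39 to 3.83 CPM elsewhere. WT replicate 2 was the lowest of the 6 libraries for 14 of the 30 receptor genes and the highest for 6. WT replicate 1 was the lowest for 0 and the highest for 10. WT replicate 3 carried more choroid plexus transcripts, with a summed level of 620.4 CPM against 4.09 to 61.9 CPM elsewhere. Values without WT replicate 2 are therefore given beside each receptor gene that its removal moved by over 1.5 times.

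Across the receptor genes, transcript levels in GFAP-IL6 cortex lay close to those of WT. Grin2c, which encodes the NMDA receptor subunit GluN2C, rose 1.35-fold (95% interval 1.17 to 1.57), and no other gene of the 30 passed the test in either direction, with DESeq2 and limma-voom calling Grin2c alone as well. The call is an adjusted p under 0.05 by the quasi-likelihood test of edgeR over 15341 genes. Thus 1 of 30 was called, against 2.86% of all genes tested. This was 1 of 30 higher against 2.65% of all genes, and 0 of 30 lower against 0.209%. At an unadjusted p under 0.05, 1 gene was higher (Grin2c) against 11.1% of all genes, and 1 was lower (Neto2) against 9.37%. The groups did not overlap for 1 gene that was higher (Grin2c), against 13.8% of all genes, and for 2 that were lower (Gria4 and Neto2), against 12.7%. Both shares of the receptor genes were below those of all genes tested. In bulk tissue, fewer cells of a type and less RNA per cell cannot be told apart.

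The sizes of the differences were small as well. The log2 fold change of GFAP-IL6 over WT was under 0.25 in size for 28 of the 30 genes. Its median size was 0.091 for the receptor genes and 0.15 for all genes tested. The 95% interval of the difference lay within ±0.5 for 25 genes and within ±1 for all 30. Among the genes that were not called, the highest upper bound was 0.63 for Grin2d, and the lowest lower bound was -0.53 for Grik1. The signed median was 0.065, with 19 of 30 genes above 0, against a median of -0.0038 and 49.4% above 0 for all genes tested. Without WT replicate 2 the median of the receptor genes was 0.010 and 17 were above 0.

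**Figure D1:**
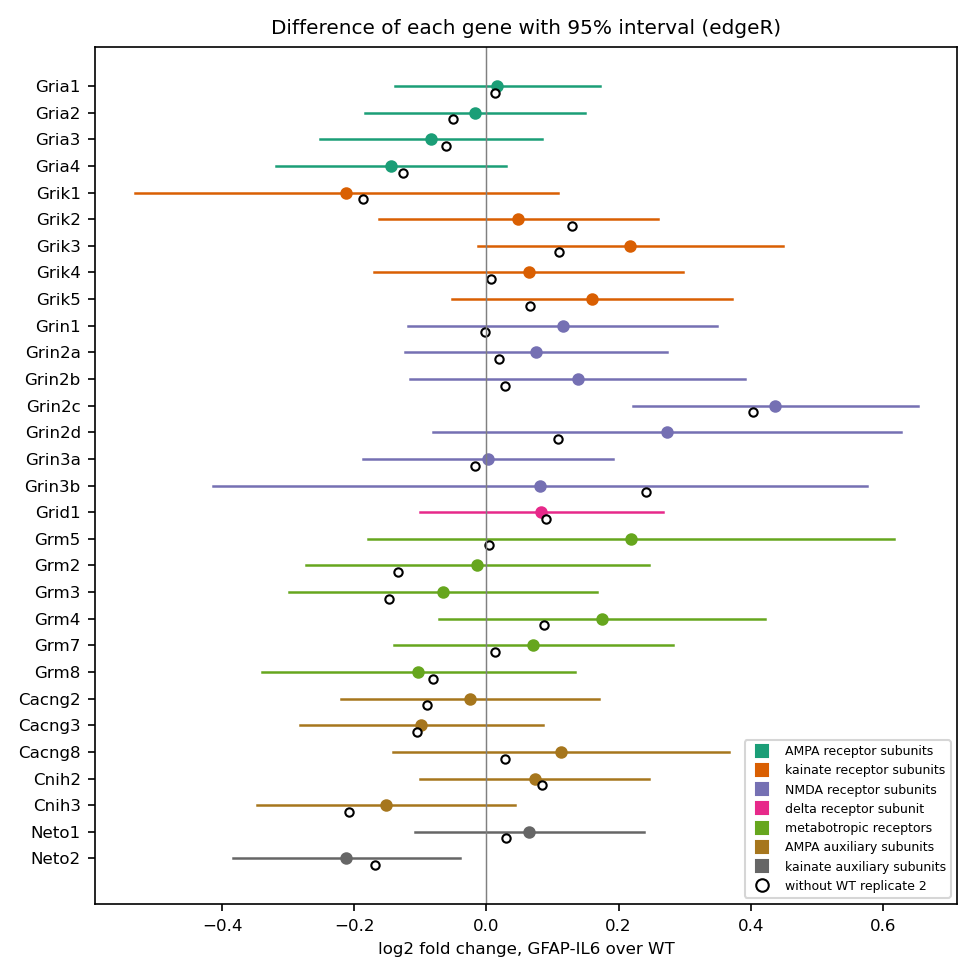
Log2 fold change of GFAP-IL6 over WT on the x axis for each of the 30 genes, as filled points coloured by class with their 95% intervals from edgeR, and as open points without WT replicate 2. The interval of Grin2c, at 0.44, lies to the right of 0 and that of Neto2, at -0.21, to the left, while the intervals of the other 28 genes include 0.

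Grin2c and Neto2 were the genes whose intervals did not include 0, and the 250 bases that precede their start sites are shown for that reason. The sequences are those of RefSeq on GRCm38.p6, on the strand of the gene, for Grin2c at chr11:115267244-115267493 (minus strand) and for Neto2 at chr8:85700925-85701174 (minus strand). Capitals mark the GC box, GGGCGG, a motif bound by factors of the Sp family.
Grin2c: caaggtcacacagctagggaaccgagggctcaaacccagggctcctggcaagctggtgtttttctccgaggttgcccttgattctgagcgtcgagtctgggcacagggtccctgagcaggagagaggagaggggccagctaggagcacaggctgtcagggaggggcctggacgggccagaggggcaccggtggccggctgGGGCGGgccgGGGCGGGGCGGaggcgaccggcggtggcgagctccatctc
Neto2: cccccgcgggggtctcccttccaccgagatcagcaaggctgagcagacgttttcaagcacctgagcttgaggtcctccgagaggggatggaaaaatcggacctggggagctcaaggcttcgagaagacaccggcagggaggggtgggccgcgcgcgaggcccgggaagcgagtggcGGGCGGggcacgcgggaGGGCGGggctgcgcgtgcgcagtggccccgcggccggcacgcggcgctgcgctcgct
Grin2c held 3 GC boxes, of which the last pair share a base, in a stretch with 68.8% GC, and Neto2 held 2 in a stretch with 72.0% GC. Of the 30 genes, 20 had RefSeq promoters, 24 in number. On both strands, 12 of the 24 held the GC box, against 32.7% of 32851 RefSeq promoters of the same length. The STAT site TTCNNNGAA, the motif of the factor that IL6 signalling activates, was in 0 of the 24, against 7.02% of all promoters. The left half-site of the neuronal silencer element RE1, TTCAGCACC, was in 1 of the 24 (Grm2), against 0.301% of all. A match of letters is a description and not a binding site.

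The NMDA receptor genes included the single gene that was called. Grin2c encodes GluN2C, a subunit of weak magnesium block and low conductance that is abundant in cerebellar granule cells and, in the forebrain, is known from glia and some interneurons. Grin2c (ENSMUSG00000020734.11, GRCm38 chr11:115249169-115267243, minus strand) was at 61.1, 53.9 and 54.6 CPM in WT replicates 1 to 3 and at 68.3, 74.3 and 86.9 CPM in GFAP-IL6 replicates 1 to 3. Every GFAP-IL6 library was above every WT library. The mean rose from 56.5 ± 4.02 to 76.5 ± 9.46 CPM (SD, n = 3 each), or by 0.44 ± 0.10 (SE) on the log2 scale (edgeR, adjusted p = 0.033). Leaving out WT replicate 2 gave 0.40 and the same adjusted p (0.033).

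The call of Grin2c depended on single libraries and on the use of an offset. It was lost without WT replicate 3 (log2 fold change 0.41, adjusted p = 0.11 by edgeR). It was also lost without GFAP-IL6 replicate 2 (0.46, adjusted p = 0.099) and without GFAP-IL6 replicate 3 (0.34, adjusted p = 0.20). In these fits Grin2c kept an unadjusted p under 0.05 by edgeR. The share of all genes called in them was 2.23%, 1.81% and 1.2%, against 2.86% with all libraries. Grin2c transcripts have a GC content of 62.1%. The log2 fold change was 0.18 (adjusted p = 0.23 by edgeR) with an offset for GC content and gene length. This offset was added after seeing the data, and it put the median of all genes tested at -0.044. It was fitted to the deviation of each library from the mean of all libraries. A genotype difference that varies with GC content or length is thus removed as well, and the fit cannot tell it from a technical one. Astrocyte markers are given here because GluN2C is known from glia: 1 of 10, Gfap, was called higher. Their summed level was 5366 to 6715 CPM in WT and 6326 to 7639 CPM in GFAP-IL6, with overlap. Gfap itself made up a mean of 94.5 CPM of the sum in WT and 678 CPM in GFAP-IL6. The other 9 were not called with all libraries, and of the 10 markers 7 had log2 fold changes above 0 and 3 below. Aldh1l1, another astrocyte marker, was at 74.5, 75.8 and 88.8 CPM in WT and at 62.3, 72.0 and 72.3 CPM in GFAP-IL6. Its groups were apart, lower in GFAP-IL6, with a log2 fold change of -0.21 (edgeR, adjusted p = 0.24). Aqp4, the water channel of astrocyte endfeet, was at 98.5, 145 and 119 CPM in WT and at 153, 151 and 182 CPM in GFAP-IL6. Its groups were apart, with a log2 fold change of 0.42 (edgeR, adjusted p = 0.11), and it was called without WT replicate 2 (0.58, adjusted p = 0.0027). The groups overlapped for Slc1a2, the main glutamate transporter of astrocytes, which was at 3638 ± 523 CPM in WT against 4018 ± 314 CPM in GFAP-IL6 (SD, n = 3 each). The part of astrocyte number or state in the level of Grin2c was not tested.

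Grin1 encodes the obligatory subunit GluN1. It had the highest length-scaled level of the class in every library, at 67.1% to 70.04% of the summed TPM (counts scaled by gene length and library total) of NMDA genes in WT and 66.8% to 68.4% in GFAP-IL6. Grin1 was at 621, 454 and 562 CPM in WT and at 591, 629 and 553 CPM in GFAP-IL6. The lowest value was that of WT replicate 2, and the groups overlapped. Its log2 fold change of 0.12 (95% interval -0.12 to 0.35) became -0.0021 without WT replicate 2.

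Grin2a and Grin2b encode GluN2A and GluN2B, the main GluN2 subunits of adult cortex. Grin2a was at 261, 222 and 238 CPM in WT and at 237, 279 and 243 CPM in GFAP-IL6, and Grin2b at 586, 415 and 475 CPM and at 562, 575 and 488 CPM. Both overlapped between groups, with log2 fold changes of 0.076 and 0.14, which were 0.020 and 0.028 without WT replicate 2. The ratio of Grin2a to Grin2b in TPM, which rises as cortex matures, was 0.817 ± 0.0744 in WT against 0.776 ± 0.0688 in GFAP-IL6 (SD, n = 3 each) and overlapped too. The ratio of Grin2c to Grin2b was 0.573 ± 0.0632 and 0.704 ± 0.151 (SD, n = 3 each). By library it was 0.513, 0.639 and 0.565 in WT and 0.599, 0.637 and 0.877 in GFAP-IL6. The groups overlapped through WT replicate 2, unlike the levels of Grin2c alone.

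Grin2d, Grin3a and Grin3b were the least abundant NMDA genes. Grin2d, a subunit of interneurons in adult cortex, was at 21.9, 13.0 and 16.5 CPM in WT and at 21.6, 18.9 and 20.9 CPM in GFAP-IL6. Its WT values spanned those of GFAP-IL6, and its log2 fold change of 0.27 became 0.11 without WT replicate 2. Grin3a, whose product lowers calcium entry, was at 40.8, 38.9 and 40.2 CPM in WT and at 42.7, 40.4 and 36.7 CPM in GFAP-IL6. For Grin3a the log2 fold change was 0.0020 and turned to -0.017 without WT replicate 2. Grin3b rested on 24 to 63 counts per library and had the widest interval of the 30 genes, -0.41 to 0.58 around a log2 fold change of 0.081, which was 0.24 without WT replicate 2.

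As a class, the 7 NMDA receptor genes were all above 0, with 0.12 as the median of their log2 fold changes. Without WT replicate 2 the median was 0.028 and 5 of 7 were above 0. Without WT replicate 1 the log2 fold changes were 0.22 for Grin1, 0.14 for Grin2a, 0.28 for Grin2b and 0.50 for Grin2c. Those of Grin2d, Grin3a and Grin3b were then 0.48, 0.018 and 0.095. The summed TPM of the 7 genes was 588, 417 and 511 in WT and 584, 609 and 550.4 in GFAP-IL6. Thus WT replicate 1 lay within the range of GFAP-IL6. WT replicate 2 was the lowest.

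**Figure D2:**
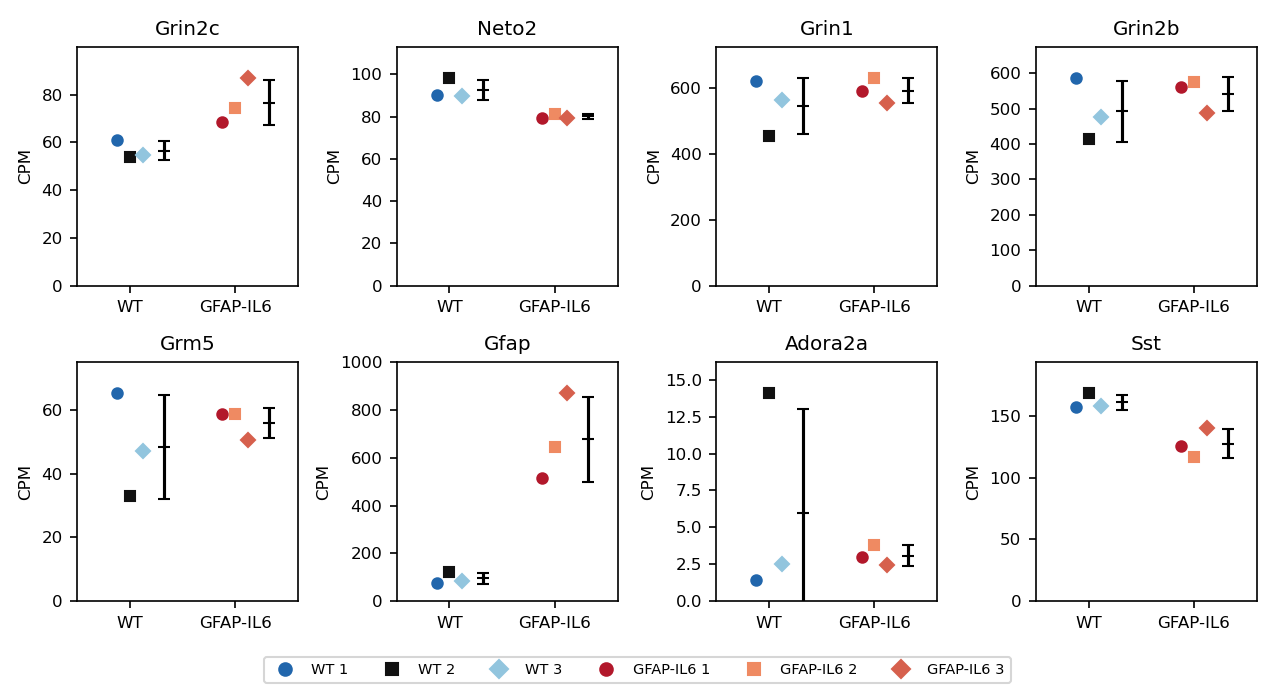
CPM of 5 receptor genes (Grin2c, Neto2, Grin1, Grin2b and Grm5) and 3 marker genes (Gfap, Adora2a and Sst) in each library, with the mean and SD of each group as bars, where the WT bar of Adora2a runs below 0 and is clipped by the axis. Grin2c and Gfap are higher and Neto2 and Sst lower in every GFAP-IL6 library, and WT replicate 2 (black square) is the lowest for Grin1, Grin2b and Grm5 and the highest for Adora2a.

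None of the 4 AMPA receptor genes was called. Gria2 encodes GluA2, the subunit that makes the channel impermeable to calcium, and it was the most abundant of the class per length, at 35.6% ± 1.28 of the summed TPM in WT against 36.2% ± 0.688 in GFAP-IL6 (SD, n = 3 each). Gria2 was at 881, 822 and 879 CPM in WT and at 859, 885 and 808 CPM in GFAP-IL6. The groups overlapped, and the log2 fold change was -0.017 (95% interval -0.18 to 0.15), which was -0.050 without WT replicate 2 and above 0 under scaling to library totals or to pan-neuronal genes.

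Gria1, the GluA1 subunit that activity brings to synapses, was at 319, 314 and 310.4 CPM in WT and at 322, 319 and 313 CPM in GFAP-IL6. All 6 values lay close together, and the log2 fold change of Gria1 was 0.017 (95% interval -0.14 to 0.17). Its share of the summed TPM of the class was 23.4% to 23.6% in WT and 24.1% to 25.3% in GFAP-IL6. Those shares did not overlap, although the ratio of Gria1 to Gria2 did, at 0.663 ± 0.0258 and 0.679 ± 0.0240 (SD, n = 3 each). The shares of Gria2, Gria3 and Gria4 overlapped, and no test of shares was run.

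Gria3 and Gria4 complete the class. Gria4, known from interneurons and the developing cortex, was at 147, 153 and 147 CPM in WT and at 145, 132 and 127 CPM in GFAP-IL6. Its groups did not overlap, but the log2 fold change of -0.14 (95% interval -0.32 to 0.030) did not pass the test (adjusted p = 0.33 by edgeR). Gria3 was at 368 to 394 CPM in WT and 338 to 377 CPM in GFAP-IL6, with a log2 fold change of -0.083. The summed TPM of the 4 AMPA genes was 641 ± 24.3 in WT against 654 ± 29.4 in GFAP-IL6 (SD, n = 3 each), and their median log2 fold change was -0.050.

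The auxiliary subunits of AMPA receptors showed no difference that passed the test. Cnih2, a cornichon that slows the closing of AMPA receptors, was the most abundant per length, at 44.6% ± 1.77 of the summed TPM in WT against 46.9% ± 1.95 in GFAP-IL6 (SD, n = 3 each). Cnih2 was at 110.4, 109 and 103 CPM in WT and at 112, 107 and 119 CPM in GFAP-IL6, and the groups overlapped. Its log2 fold change was 0.073 (95% interval -0.10 to 0.25).

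Cnih3, the second cornichon, was at 73.3, 61.3 and 65.2 CPM in WT and at 62.2, 61.4 and 55.8 CPM in GFAP-IL6. Its levels overlapped through WT replicate 2, and the log2 fold change was -0.15 (95% interval -0.35 to 0.043). Without WT replicate 2 it was -0.21, with an unadjusted p of 0.024 and an adjusted p of 0.23 by edgeR. The share of Cnih3 in the summed TPM of the class was 11.8% to 12.9% in WT and 10.4% to 11.7% in GFAP-IL6, without overlap. The shares of Cacng2, Cacng3, Cacng8 and Cnih2 overlapped, and no test of shares was run.

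The TARPs anchor AMPA receptors at the synapse through scaffold proteins. Cacng2 (stargazin) was at 112 to 130.1 CPM in WT and 111 to 129 CPM in GFAP-IL6, and Cacng3 at 113 to 133 CPM and 112 to 117 CPM. Cacng8 was at 28.6 to 39.0 CPM and 33.9 to 37.1 CPM. Their log2 fold changes were -0.025, -0.098 and 0.11, and all 3 overlapped between groups. Without WT replicate 2 they were -0.090, -0.10 and 0.028. The sign of Cacng2 and of Cacng3 turned under scaling to pan-neuronal genes.

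Among kainate receptor genes, none of the 5 was called. Grik5 encodes GluK5, a high-affinity subunit that needs a partner such as GluK2 to form a channel. It held 66.3% ± 2.41 of the summed TPM of the class in WT against 67.7% ± 0.963 in GFAP-IL6 (SD, n = 3 each). Grik5 was at 226, 172 and 197 CPM in WT and at 225, 215 and 223 CPM in GFAP-IL6. WT replicate 1 lay above all GFAP-IL6 libraries and the other WT libraries below them, and the log2 fold change was 0.16 (95% interval -0.052 to 0.37), or 0.065 when WT replicate 2 was left out.

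Grik3, the GluK3 subunit found at presynaptic sites, was at 92.9, 73.6 and 94.5 CPM in WT and at 109, 93.1 and 100.4 CPM in GFAP-IL6. Its log2 fold change of 0.22 (95% interval -0.013 to 0.45) came to 0.11 when WT replicate 2 was left out and was 0.015 under the offset for GC content and gene length. Grik1, an interneuron subunit with 67 to 213 counts per library, was at 10.5, 12.6 and 13.4 CPM in WT and at 11.1, 8.85 and 11.5 CPM in GFAP-IL6. The groups overlapped, and its log2 fold change was -0.21 (95% interval -0.53 to 0.11). Grik2 and Grik4 had log2 fold changes of 0.048 and 0.064, which were 0.13 and 0.0066 without WT replicate 2. The summed TPM of kainate genes was 217 ± 28.1 in WT against 249 ± 11.2 in GFAP-IL6 (SD, n = 3 each) and overlapped, with WT replicate 2 the lowest at 189.

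Neither of the kainate auxiliary subunits, Neto1 and Neto2, was called. Neto2 (ENSMUSG00000036902.9, GRCm38 chr8:85636588-85700924, minus strand), which modulates the gating of kainate receptors and binds the potassium-chloride transporter of neurons, was at 90.2, 98.2 and 89.7 CPM in WT and at 79.6, 81.2 and 79.5 CPM in GFAP-IL6. All GFAP-IL6 values lay below all WT values, and they varied by less than 2 CPM. The log2 fold change was -0.21 ± 0.079 (SE), with a 95% interval of -0.38 to -0.040. The unadjusted p was 0.019 and the adjusted p 0.17 by edgeR, so Neto2 did not pass the test over all genes. Without WT replicate 2 the log2 fold change was -0.17 (adjusted p = 0.27), with the offset it was -0.12 (adjusted p = 0.31), and scaled to pan-neuronal genes it was -0.094 (adjusted p = 0.59).

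Neto1, which also binds NMDA receptors, was at 66.5, 59.5 and 61.8 CPM in WT and at 66.4, 66.7 and 63.3 CPM in GFAP-IL6, and the groups overlapped. Its log2 fold change was 0.065 (95% interval -0.11 to 0.24), or 0.029 when WT replicate 2 was left out. The ratio of Neto1 to Neto2 in TPM was 1.17, 0.963 and 1.10 in WT and 1.33, 1.30 and 1.27 in GFAP-IL6, so the groups were apart, and no test of this ratio was run. The summed TPM of both was 95.1 ± 3.99 and 95.7 ± 2.18 (SD, n = 3 each).

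Grid1 encodes GluD1, a delta subunit that links synapses through cerebellins. It was at 56.1, 52.4 and 47.8 CPM in WT and at 55.8, 54.5 and 54.9 CPM in GFAP-IL6, with a log2 fold change of 0.083 (95% interval -0.10 to 0.27). The groups overlapped.

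Metabotropic receptors showed no called gene in any of their 3 groups. Grm5, the mGluR5 receptor of group I, which couples to calcium release, was at 65.2, 32.9 and 47.1 CPM in WT and at 58.6, 58.6 and 50.6 CPM in GFAP-IL6. WT replicate 1 was the highest and WT replicate 2 the lowest of all 6 libraries, so the spread of WT covered GFAP-IL6 entirely. The log2 fold change of 0.22 (95% interval -0.18 to 0.62) became 0.0035 without WT replicate 2 and 0.49 (adjusted p = 0.053 by edgeR) without WT replicate 1.

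Group II receptors lower transmitter release. Grm3, which astrocytes also express, had the highest mean TPM of the metabotropic genes, at 31.8% ± 3.88 of the sum in WT against 29.4% ± 2.75 in GFAP-IL6 (SD, n = 3 each). Grm3 was at 67.2, 61.5 and 79.2 CPM in WT and at 70.7, 58.5 and 69.1 CPM in GFAP-IL6, and overlapped, with a log2 fold change of -0.066, or -0.15 when WT replicate 2 was left out. Grm2 was at 48.9 to 70.3 CPM in WT and 54.3 to 62.8 CPM in GFAP-IL6, with a log2 fold change of -0.014, which was -0.13 without WT replicate 2 and above 0 under scaling to library totals or to pan-neuronal genes. The group III receptors Grm4, Grm7 and Grm8, presynaptic receptors as well, had log2 fold changes of 0.18, 0.071 and -0.10, and all overlapped between groups. Without WT replicate 2 these were 0.087, 0.014 and -0.080. Summed over the 6 genes, TPM was 200.1 ± 32.4 in WT against 215 ± 11.6 in GFAP-IL6 (SD, n = 3 each).

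**Figure D3:**
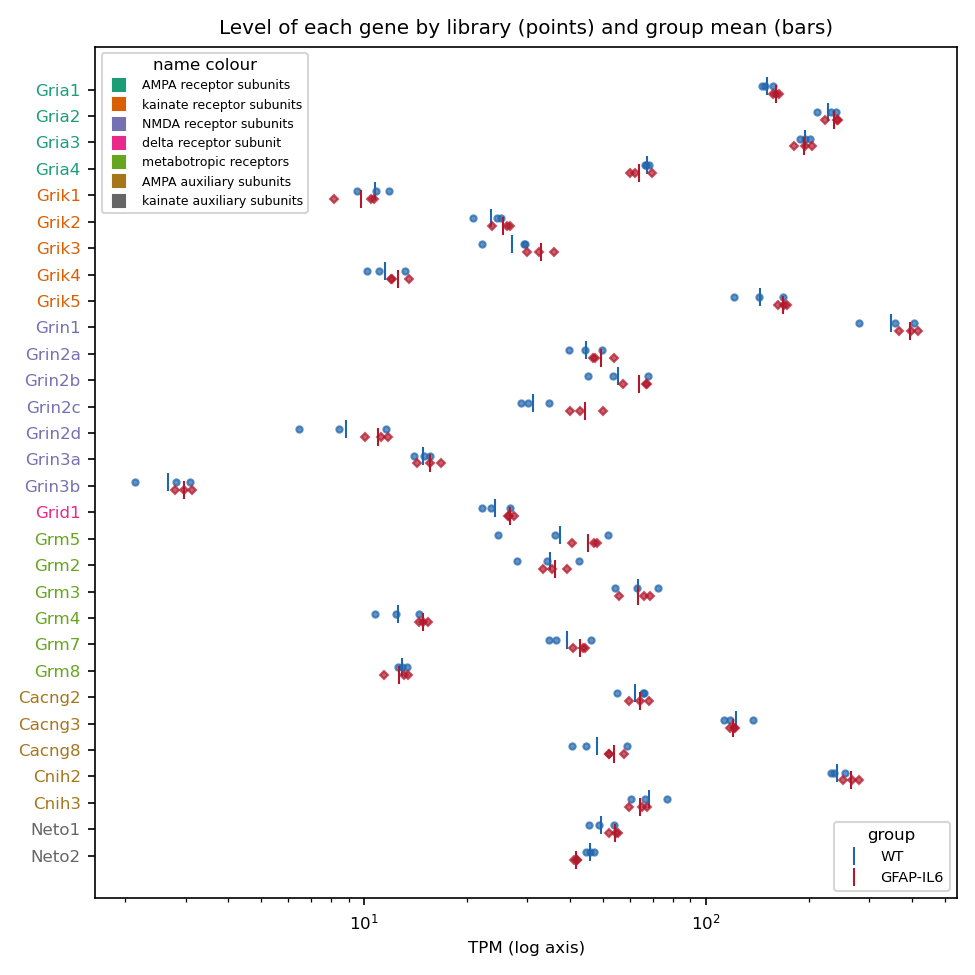
TPM of the 30 genes on a logarithmic x axis, with a point for each library and a vertical bar for each group mean, WT in blue circles and GFAP-IL6 in red diamonds, and gene names coloured by class. Levels span from Grin3b, with a WT mean of 2.67 TPM, to Grin1, with a WT mean of 348 TPM, and points of the groups overlap for most genes.

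The spread among the WT libraries was larger than that among the GFAP-IL6 libraries. The coefficient of variation of CPM was larger in WT for 21 of the 30 genes, with a median of 9.83% in WT and 6.14% in GFAP-IL6. WT replicate 2 lay below the mean of the other WT libraries for 21 of 30 genes, by a median of -0.14 on the log2 scale, against 0.020 for all genes tested. Without it, 19 of 30 log2 fold changes moved closer to 0 and 2, those of Grin1 and Grin3a, changed sign.

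**Figure D4:**
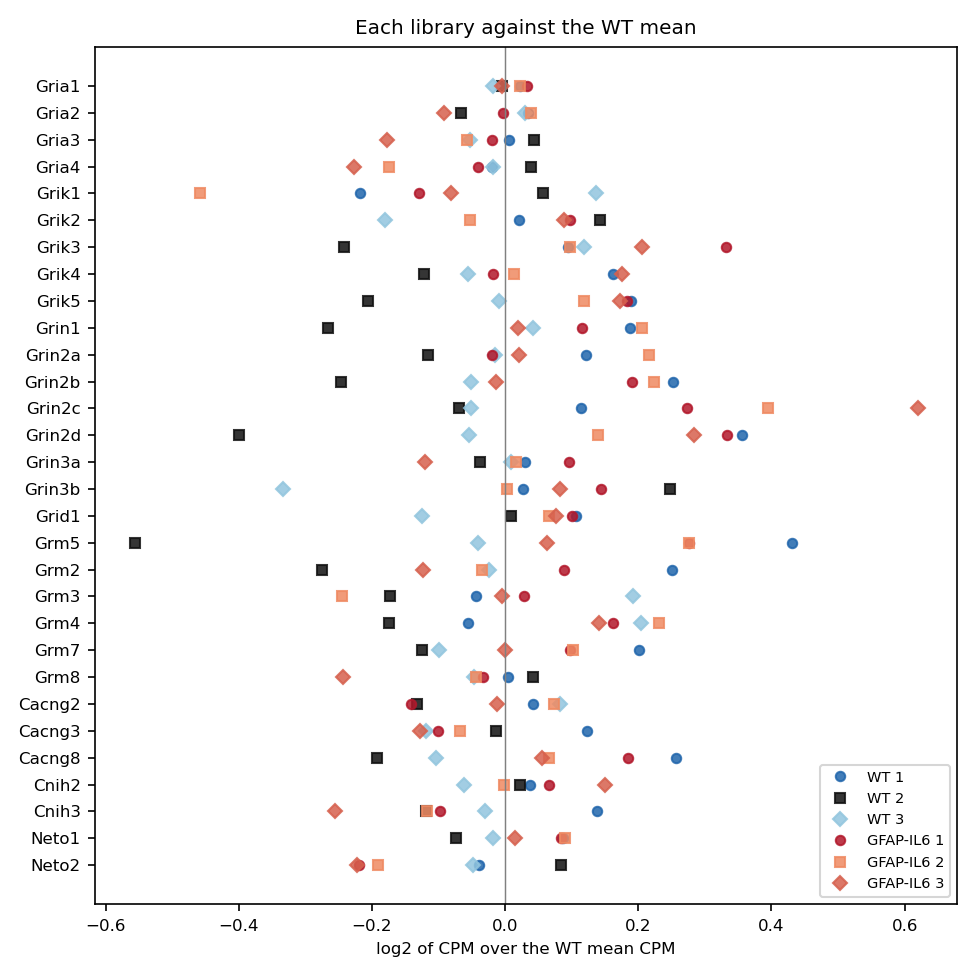
Log2 of the CPM of each library over the WT mean on the x axis for each of the 30 genes, with a marker for each library. WT replicate 2 (black squares) is the lowest marker for 14 genes, and the 3 GFAP-IL6 libraries lie to the right of all WT libraries for Grin2c and to the left for Gria4 and Neto2.

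The deviation of WT replicate 2 varied with the GC content of the transcripts. Its median was -0.10 in the fifth of all genes with the most GC (55.6% or more) and 0.13 in the fifth with the least (43.9% or less). The log2 fold change of GFAP-IL6 over WT had a median of 0.088 over all genes in the former and -0.090 in the latter, and without WT replicate 2 these were 0.046 and -0.051. The median GC content was 49.5% for the receptor genes and 49.8% for all genes tested. Of the receptor genes, 7 lay in the fifth with the least GC and 9 in that with the most. Those 9 were Grik5, Grin1, Grin2c, Grin2d, Grin3b, Grm2, Grm4, Cacng8 and Cnih2, and 8 of them were above 0. Their median was 0.12, against 0.0020 for the other receptor genes. With the offset, the medians over all genes of those sets were -0.042 and -0.037, the median of the receptor genes was -0.047, and the sign of 11 of the 30 changed.

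**Figure D5:**
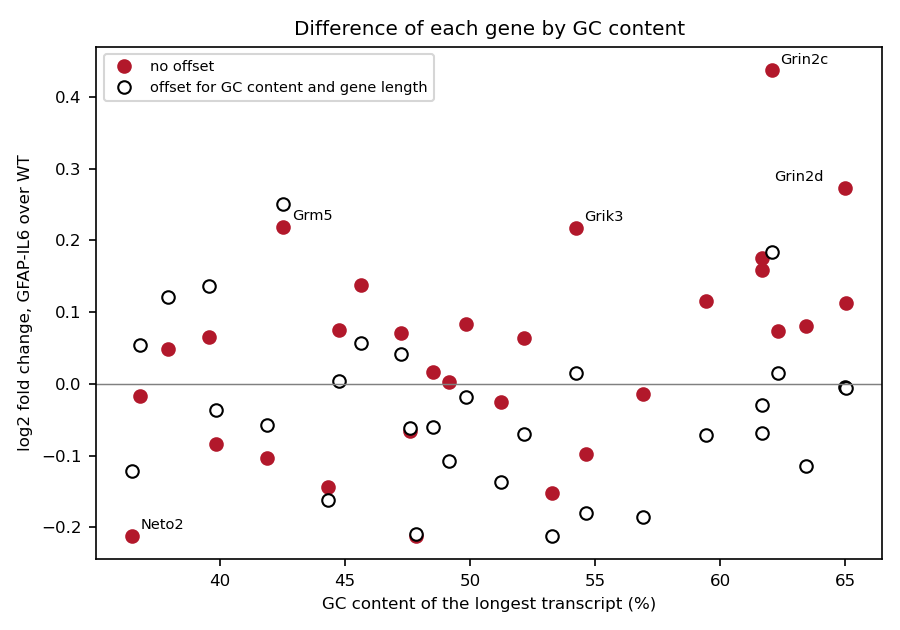
Log2 fold change of GFAP-IL6 over WT against the GC content (%) of the longest transcript of each of the 30 genes, without an offset (filled) and with an offset for GC content and gene length (open). Grin2c lies at 62.1% GC and moves from 0.44 to 0.18, and Grin2d from 0.27 to -0.0046.

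Other genes of the glutamate synapse were then examined by list. Of 24 further receptor, auxiliary and assembly genes, 23 were tested and 0 were called by edgeR, with 1 at an unadjusted p under 0.05. This was Shisa7, an auxiliary protein of AMPA and GABA-A receptors, at 167, 111 and 142 CPM in WT and at 179, 179 and 188 CPM in GFAP-IL6, with a log2 fold change of 0.38 (adjusted p = 0.12), or 0.24 (adjusted p = 0.16) when WT replicate 2, its lowest library, was left out. Cbln4, a synaptic organiser that had the next smallest p, had a log2 fold change of 0.32 (adjusted p = 0.25). Grm6, the receptor of retinal bipolar cells, had no counts in any library. DESeq2 and limma-voom called 0 of these genes as well, and edgeR called 1 without WT replicate 1, without the low-count filter, when scaled to pan-neuronal genes and with the offset.

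Of 25 genes of the postsynaptic scaffold and its signalling, 1 was called. Arc, an immediate early gene whose product drives the removal of AMPA receptors from synapses, was at 66.9, 41.3 and 86.2 CPM in WT and at 259, 232 and 160.3 CPM in GFAP-IL6. The groups did not overlap, and Arc rose by 1.75 ± 0.22 (SE) on the log2 scale (adjusted p = 0.00071 by edgeR), and was again called without WT replicate 2 (adjusted p = 2.4e-05). At an unadjusted p under 0.05, Shank1, Shank2, Shank3 and Grip2 were higher too, with log2 fold changes of 0.47, 0.33, 0.36 and 0.27, and none of the 4 passed after adjustment. WT replicate 2 was the lowest library for all 4, and without it their log2 fold changes were 0.24, 0.24, 0.22 and 0.17. Without WT replicate 1, edgeR called 6 genes of the list. The median of the list was 0.076 and became -0.0085 without WT replicate 2.

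Genes of glutamate transport and metabolism were not called, 0 of 14 by edgeR, with 1 at an unadjusted p under 0.05. Gls2, a glutaminase that yields glutamate, was at 30.7, 29.9 and 31.9 CPM in WT and at 34.2, 38.7 and 36.7 CPM in GFAP-IL6. Its groups did not overlap, with a log2 fold change of 0.24 (adjusted p = 0.16). Slc17a6, a vesicular glutamate transporter mainly of subcortical neurons, had a log2 fold change of -0.23 (adjusted p = 0.35). Of 15 genes for the metabolism of the NMDA co-agonists glycine and D-serine and of kynurenines, 10 were tested and 0 were called, with 0 at an unadjusted p under 0.05. DESeq2 and limma-voom called 0 genes of either list. The smallest p were those of Psat1, which acts in the synthesis of serine (log2 fold change -0.16, adjusted p = 0.46), and of Slc1a4, a transporter of neutral amino acids (0.10, adjusted p = 0.49).

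Markers of cell types that could move with receptor levels were summed per library. Of 15 pan-neuronal markers, 0 were called by edgeR, DESeq2 or limma-voom, with 4 lower at an unadjusted p under 0.05. Their median log2 fold change was -0.095 and their sum 11035 to 11286 CPM in WT and 9625 to 10843 CPM in GFAP-IL6, without overlap. The sum of the 30 receptor genes was 4096 to 4740 CPM in WT and 4347 to 4646 CPM in GFAP-IL6, with overlap. Scaled to the pan-neuronal genes, the receptor genes had a median of 0.18 on the log2 scale and all genes tested a median of 0.11.

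Excitatory neurons were represented by 12 markers, of which 1, Nrn1, was called lower (log2 fold change -0.34, adjusted p = 0.033 by edgeR), with sums of 2097 to 2395 CPM in WT and 2047 to 2210 CPM in GFAP-IL6. No marker of that list was called without WT replicate 3 or without any 1 of the GFAP-IL6 libraries, and 2 were called without WT replicate 2. Of 10 interneuron markers 0 were called and 6 were lower at an unadjusted p under 0.05, with sums of 1397 to 1478 CPM and 1190 to 1290 CPM. DESeq2 called 1 of the 10, and edgeR 2 without WT replicate 1. Among them, Sst was at 157, 169 and 158 CPM in WT and at 125, 117 and 141 CPM in GFAP-IL6 (adjusted p = 0.062 by edgeR). Gria4, Grik1 and Grin2d, known from interneurons, had log2 fold changes of -0.14, -0.21 and 0.27. The part of these cells in the receptor levels was not tested.

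Of the glial and vascular lists, 11 of 12 microglial markers were called higher, with sums of 459 to 559 CPM in WT and 979 to 1137 CPM in GFAP-IL6. Likewise 6 of 10 endothelial markers were called higher, with sums of 209 to 230.2 CPM and 322 to 367 CPM, and 3 were called without GFAP-IL6 replicate 1. None was called by edgeR of 10 markers of oligodendrocytes, 6 of their precursors, 11 tested of the striatum, 4 tested of the choroid plexus and 5 of blood. At an unadjusted p under 0.05 these lists held 0, 1, 2, 2 and 0 genes. DESeq2 called 1 of the striatum and 0 of the others. Without WT replicate 1 edgeR called 2 of oligodendrocytes, 1 of their precursors and 1 of the striatum, and without WT replicate 2 it called 2 of the striatum. The sum of oligodendrocyte markers was 3412 to 6305 CPM in WT and 3441 to 5382 CPM in GFAP-IL6, with the lowest and the highest value both in WT.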

How the data were processed

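Raw counts per gene, with a gene length, were deposited by the authors. Per the study's methods and processing notes, reads were aligned with STAR 2.4 to mm10 and uniquely aligned reads were counted with featureCounts over GENCODE genes (the processing notes list hg19 as build). Strand use is not given in the sources used here. There were 0 further per-sample columns.

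Groups came from the sample titles, and each library was 1 mouse. edgeR 4.0.16 (R 4.3.3) was run on all 33000 genes with TMM scaling and filterByExpr, leaving 15341, and p was adjusted by Benjamini-Hochberg. CPM are TMM-scaled, and TPM used the deposited lengths. DESeq2, the package of the authors (run here in version 1.42.0), limma-voom (limma 3.58.1) and other scalings and filters served as alternatives. So did a replicate block, each library left out and a per-library offset smoothed over GC content and gene length. Total counts limit precision, which the intervals include. Fits were tested on simulated data.

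Receptor genes and lists were chosen with earlier results of these data known. Every receptor gene is accounted for. Those past an adjusted or unadjusted p of 0.05, those whose sign or call at either p changed without WT replicate 2 and the most abundant of each class are given per library. Of other lists, called genes or the 2 of smallest p are named.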

Additional observations from a re-analysis of the deposited data

How the results depend on the processing

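Among the 30 receptor genes, no called value reversed. With the offset for GC content and gene length, Grin2c was at 0.18 (adjusted p = 0.23) and no gene was called. That offset, added after seeing the data, left 0 genes higher and 3 lower at an unadjusted p under 0.05, against 8.14% and 13.4% of all genes. The medians were -0.047 for all receptor genes, -0.0046 for NMDA and -0.14 for AMPA auxiliary genes, against -0.044 for all genes tested. The sign changed for Gria1 (-0.060), Gria2 (0.054), Grik4 (-0.070), Grik5 (-0.030), Grin1 (-0.071), Grin2d (-0.0046), Grin3a (-0.11), Grin3b (-0.11), Grid1 (-0.018), Grm4 (-0.069) and Cacng8 (-0.0062).

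Scaled to pan-neuronal genes, which moved the median of all genes by 0.11, 8 genes were higher and 0 lower at an unadjusted p under 0.05, against 21.3% and 1.44% of all genes. The medians were 0.18 for all receptor genes, 0.066 for AMPA, 0.19 for kainate, 0.23 for NMDA, 0.15 for metabotropic and 0.094 for AMPA auxiliary genes. The sign changed for Gria2 (0.099), Gria3 (0.033), Grm2 (0.10), Grm3 (0.056), Grm8 (0.013), Cacng2 (0.094) and Cacng3 (0.020). With library totals, 2 genes were higher at an unadjusted p under 0.05 (all genes 13.0%), and Gria2 (0.0060) and Grm2 (0.010) changed sign. Grin3a turned to -0.0027 in DESeq2, and to -0.00084 without the low-count filter, where 3 genes were higher at an unadjusted p under 0.05 (all genes 9.29%). Grm2 was at 0.0030 in limma-voom.

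Leaving out 1 library moved Grin2c between 0.34 and 0.52 and the number called between 0 and 1. At an unadjusted p under 0.05, 1 to 7 were then higher, against 7.44% to 14.6% of all genes, and 0 to 2 lower, against 4.91% to 12.9%. The highest of these numbers of higher genes and both highest shares were those without WT replicate 1. The metabotropic median moved between -0.038 and 0.14. Genes that changed sign ranged from -0.050 to 0.021 (Gria2), -0.037 to 0.13 (Grik2), -0.0021 to 0.22 (Grin1), -0.051 to 0.062 (Grin3a), -0.070 to 0.24 (Grin3b), -0.13 to 0.13 (Grm2), -0.15 to 0.042 (Grm3) and -0.090 to 0.031 (Cacng2). The causes were not tested.

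The main test did not pair the samples by replicate number. Deviations from the group means correlated at 0.11, 0.017 and 0.035 for equal numbers and at -0.086 to 0.052 for unequal ones. WT replicates 1 and 3 correlated best with the GFAP-IL6 library of their own number, and WT replicate 2 with GFAP-IL6 replicate 3. With the replicate block, Grin2c was called (0.43, adjusted p = 0.031 by edgeR), 2 receptor genes were higher at an unadjusted p under 0.05 (all genes 12.8%) and Grin3a was at -0.0026.

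Over all genes, 407 were called higher and 32 lower. These numbers were 594 and 156 with the replicate block, 416 and 106 in DESeq2, 801 and 353 without the filter, 834 and 9 scaled to pan-neuronal genes, 470 and 21 with library totals and 371 and 130 with the offset. Leaving out 1 library gave 186 to 692 higher and 1 to 369 lower. Depth limits Grin3b most, at 24 counts in its lowest library.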
